A study of Mus musculus with 18 samples.

Results

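Mouse embryos that had received an siRNA against Echs1 (siEchs1) were compared with embryos that had received a control siRNA (siCon) at the stage labelled E2C, the early 2-cell embryo. The 6 libraries were chosen by their titles, which give the siRNA, the stage and a replicate number. They make up 6 of the 18 libraries of the series, with 3 per group. Each came from 1 tube of 5 to 10 embryos, lysed together and amplified by Smart-seq2, a full-length protocol that starts from poly(A) RNA. Both groups carry an siRNA and no label names a further allele or agent. The sources used here give no strain, siRNA sequence, dose or hours after fertilisation. The other 12 libraries are siCon and siEchs1 embryos at the stage labelled L2C and E2C embryos of a separate experiment with sodium crotonate, sodium acetate or DMSO. No label says that replicates came from separate matings, so p-values measure the spread between tubes. The fit took that spread from the siRNA libraries of both stages, E2C and L2C.

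Echs1 encodes the mitochondrial short-chain enoyl-CoA hydratase, which adds water to crotonyl-CoA during the breakdown of fatty acids and branched-chain amino acids. Crotonyl-CoA is also the donor for histone crotonylation, an acyl mark written by acetyltransferases such as p300 and removed by histone deacetylases. In the early 2-cell embryo, transcripts stored by the oocyte are being cleared while the embryonic genome starts its first transcription. A short-lived set of genes and repeats, with the Zscan4 family among them, is transcribed at that time.

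Levels were FPKM (fragments per kilobase of gene, scaled to the mapped fragments of the library), so a level is scaled by gene length and by library. A log2 fold change is the difference of the group means of log2(FPKM + 1), siEchs1 minus siCon, given with its standard error. A gene was called at a limma adjusted p under 0.05 over 17652 genes tested. In pooled embryos, a lower level in every embryo and fewer embryos with the transcript cannot be told apart.

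The 3 siCon libraries resembled one another, with a Spearman rho of 0.902 to 0.915 across genes. Replicates 1 and 2 of siEchs1 did too (rho 0.900), but replicate 3 correlated with them at 0.668 and 0.718, and with the siCon libraries at 0.707 to 0.722. Replicate 3 is given apart for genes whose values are printed and for most lists. Totals of FPKM were 1006350 to 1123990 in siCon and 714358 to 903186 in siEchs1, and 13328 to 13894 genes reached 1 FPKM in each of the 6 libraries. These files hold no counts, so the depth behind a single value is unknown. Markers of cumulus and granulosa cells summed to 9.94 to 14.6 FPKM in siCon against 10.1 to 12.5 FPKM in siEchs1. Of 18 such markers 3 passed the filter on low values, Tnfaip6 among them was called lower (log2 change -1.33, limma adjusted p = 0.0223), and Amh, Inhbb and Ptx3 were at 0 in all 6 libraries. Blood markers summed to 68.2 to 86.2 FPKM in siCon and to 6.16, 3.3 and 25.1 FPKM in siEchs1 replicates 1 to 3. Of 13, 4 were tested and all 4 were called lower, with the globins Hba-a1 and Hba-a2 the most abundant in siCon. Others were near 0 in siCon, and Hbb-bs was at 0.1, 0.43 and 0.98 FPKM there and at 2.8, 1.5 and 0.19 FPKM in siEchs1, while S100a8 and S100a9 were at 7.99 and 3.74 FPKM in replicate 3. Oviduct markers summed to 23.2 to 27.9 FPKM in siCon and to 5.33, 8 and 19.9 FPKM, with Epcam as the highest, and 0 of 5 tested were called by limma (3 at an unadjusted p under 0.05). Sperm and testis markers summed to 89.2 to 124 FPKM in siCon and to 258, 137 and 101 FPKM, with 2 of 6 called lower and Tnp2 and Acr at 0 in every library. The part of these cell types in the results was not tested.

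Echs1 itself was measured first. It stood at 30.5, 27.5 and 32.5 FPKM in siCon and at 0.71, 5.88 and 3.82 FPKM in siEchs1 replicates 1 to 3. The groups did not overlap, replicate 3 lay with the other siEchs1 libraries, and the 2 DMSO libraries of the separate experiment, at 37.4 and 38.4 FPKM, lay above siCon. The log2 fold change was -3.02 ± 0.52 (limma adjusted p = 0.00252), and the gene was called in all 12 other fits.

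Of the genes tested, 3578 were called (20.3%), 1934 of them higher in siEchs1 (11%) and 1644 lower (9.31%). After rescaling without mitochondrially encoded and ribosomal RNA the split was 2790 higher and 1221 lower, and after quantile normalization it was 1659 and 1928. The counts rested on single libraries. With replicate 3 of siEchs1 left out, calls numbered 6496, of which 4052 were higher (23%) and 2444 lower (13.8%). Without siCon replicate 1, 2 or 3 the totals were 2295, 1982 and 1889, and without siEchs1 replicate 2 the total was 1906. The E2C libraries alone, with no L2C tubes in the estimate of spread, gave 1353 calls. A stricter set held the genes called in the same direction by the test and by 12 other fits, which left out each library, changed the scaling or changed the model. It counted 1135 genes (6.43%), 466 higher (2.64%) and 669 lower (3.79%), and these are written below as called in every fit. The 36 genes that the rescaling removes had 11 other fits. A gene of the strict set had to be called without each library in turn. That choice favours genes whose siEchs1 libraries, replicate 3 included, lie on the same side of siCon without overlap. Counts within a gene list are to be read against the shares over all genes, 11% higher and 9.31% lower, or 23% and 13.8% without replicate 3 of siEchs1. The libraries of the groups did not overlap for 3353 higher genes (19%) and 2742 lower genes (15.5%). The median log2 fold change of all genes was 0.15, or 0.06 after quantile normalization and 0.34 after rescaling.

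**Figure D1:**
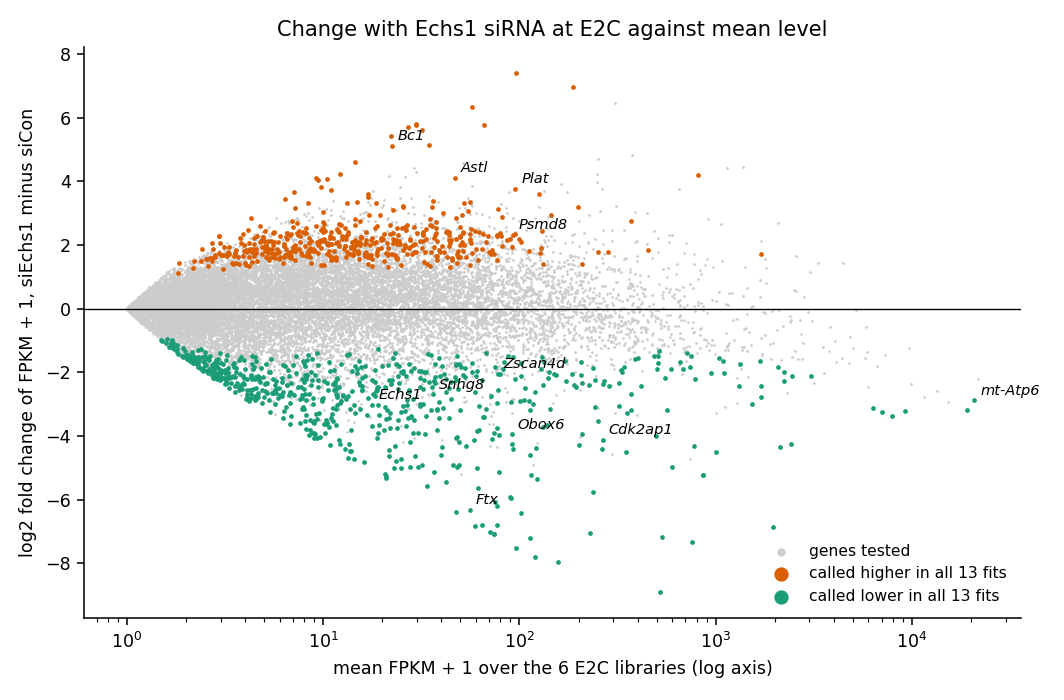
Each point is 1 of 17652 genes, with the mean FPKM + 1 over the 6 E2C libraries on a log x axis and the log2 fold change (siEchs1 minus siCon) on the y axis. Orange and green points are the 466 higher and 669 lower genes called in every fit, which had served to choose them, and the lower genes reach log2 fold changes near that of Gm48271, -8.91.

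The 669 lower genes were set beside the DMSO libraries, a control group of the same labelled stage whose values had played no part in the choice. Their median log2(FPKM + 1) was 4.31, 4.45 and 4.58 in siCon, 1.13, 1.23 and 1.55 in siEchs1 replicates 1 to 3, and 1.79 and 1.54 in DMSO. The DMSO libraries thus lay near siEchs1 for this set and far from siCon. For the 466 higher genes the medians were 2.15, 2.17 and 2.19 in siCon, 4.37, 4.79 and 4.08 in siEchs1 and 3.05 and 3.21 in DMSO, between both groups. Over all genes tested they were 2.26 to 2.37, 2.41 to 2.55, and 1.97 and 2.01. The siRNA and DMSO experiments were made and scaled separately, so these levels are given without a test. What sets siCon apart from DMSO cannot be told apart from the difference between experiments.

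Many of the largest falls were in transcripts that were abundant in all 3 siCon libraries and close to 0 in all 3 siEchs1 libraries, replicate 3 included. There were 19 genes with at least 50 FPKM in every siCon library and at most 5 FPKM in every siEchs1 library, 5 of them protein-coding, and 1 gene with the opposite pattern. All 19 carry symbols of predicted genes except Ftx, and they were picked out after their values were seen. Gm48271, on chromosome 10 from 50292646 to 50296142, stood at 941, 1165 and 1020 FPKM in siCon and at 0.58, 0.76 and 2.65 FPKM in siEchs1 (a log2 change of -8.91 ± 0.35, limma adjusted p = 3.896e-08). Its level was 29.3 and 11.7 FPKM in DMSO and 3.48 to 5.67 FPKM in siCon at L2C. High levels of this transcript were thus seen in siCon at E2C and in none of the other control libraries.

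Ftx, a long noncoding RNA of the X-inactivation centre (chromosome X, 103560907 to 103623790), had a similar profile. It stood at 134, 102 and 92.0 FPKM in siCon and at 0.49, 0.65 and 0.03 FPKM in siEchs1 (a log2 change of -6.32 ± 0.34, adjusted p = 3.895e-07). In DMSO it was at 8.6 and 11 FPKM, between the groups. The predicted lincRNA Gm45899 on chromosome 8 stood at 233, 244 and 191 FPKM in siCon, at 0.17, 0.24 and 1.32 FPKM in siEchs1, and at 22.8 and 13 FPKM in DMSO. A group of predicted genes lay close together on chromosome 7. Between 20 and 23 Mb, a window chosen after the values were seen, 8 of 16 tested genes were called lower in every fit and 0 higher. Gm6176 among them was at 125, 154 and 139 FPKM in siCon, at 0, 0 and 0.25 FPKM in siEchs1 and at 0 in both DMSO libraries. Members of this group share sequence, and Gm4513 and Gm4565 had identical siCon values (136, 168 and 148 FPKM), so reads of the copies were not resolved.

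The rises of this kind were fewer. Of genes listed at 0 in all 3 siCon libraries, 15 stood at 5 FPKM or more in all 3 siEchs1 libraries, against 17 in the opposite direction. Bc1, a short RNA polymerase III transcript best known from neurons, was listed at 0 in every siCon library and at 39.6, 76.7 and 12.1 FPKM in siEchs1 (adjusted p = 0.000425). It was at 3.58 and 6.66 FPKM in DMSO. The processed pseudogene Gm10177 rose from 46.4, 82.0 and 89.4 FPKM to 2528, 1576 and 564 FPKM (log2 fold change 4.21 ± 0.47, adjusted p = 0.000164), and DMSO lay at 181 and 220 FPKM.

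Annotated classes of RNA moved unequally. Of 13222 protein-coding genes tested, 13% were called higher and 6.75% lower, with a median log2 fold change of 0.26. Long intergenic noncoding RNAs (lincRNAs) went the other way, with 17 of 934 called higher (1.82%) and 181 lower (19.4%), a median of -0.41, and 4 higher and 86 lower in every fit. Of 576 antisense RNAs, 27 were higher and 93 lower, and of 205 unprocessed pseudogenes 2 were higher and 61 lower. Without replicate 3 of siEchs1 these counts were 75 and 118 for antisense RNAs and 3 and 81 for unprocessed pseudogenes. The lower calls of lincRNAs were 224 without replicate 3 of siEchs1 and 128 without replicate 2. They were 123 without replicate 3 of siCon, 233 after quantile normalization and 144 after rescaling, and in each of these fits they outnumbered the higher calls. Higher calls of lincRNAs moved from 17 to 99 without replicate 3 of siEchs1. Median exon length was 999 nt in the lincRNAs and 4133 nt in the protein-coding genes, and median mean level was 3.29 and 6.96 FPKM. The part of length and level in the class difference was not tested. Summed over 5217 lincRNA genes, the level was 39587, 42464 and 41773 FPKM in siCon, 23158, 18847 and 19096 FPKM in siEchs1, and 36686 and 36757 FPKM in DMSO. In this sum DMSO lay with siCon, unlike in the set of lower genes. The median log2(FPKM + 1) of the 934 tested lincRNAs was 2.06 to 2.14 in siCon and 1.44 to 1.85 in siEchs1. It was 1.33 and 1.47 in DMSO, so by this median DMSO lay nearer to siEchs1 than to siCon.

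Small nucleolar RNAs (snoRNAs), which guide the modification of ribosomal RNA and mostly lie in introns of host genes, were lower as well. Of 100 tested, 2 were called higher and 31 lower, with a median log2 fold change of -1.12 and 15 lower in every fit. Lower calls were 20 without replicate 3 of siCon and 29 without replicate 3 of siEchs1. They were 20 with log2(FPKM + 0.1) and 34 after quantile normalization. Median log2(FPKM + 1) was 0, 0 and 1.77 in siCon replicates 1 to 3 and 0, 0 and 1.06 in siEchs1. Many values thus lay at the floor. Snora47 stood at 396, 573 and 1023 FPKM in siCon and at 17.1, 15.1 and 66.6 FPKM in siEchs1 (-4.51 ± 0.80, adjusted p = 0.0028). Summed over all 1453 snoRNA genes, the level was 1605, 1756 and 3304 FPKM in siCon, 333, 315 and 859 FPKM in siEchs1, and 3499 and 3359 FPKM in DMSO. All siEchs1 libraries lay below siCon and DMSO in this sum. Capture of such short RNAs by a poly(A) protocol is incidental, and reads of a snoRNA and of its host intron cannot be told apart here.

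The noncoding host genes of snoRNAs fell too. Of 17 tested from a list of 21, 9 were called lower and 0 higher, 4 of them in every fit, with a median of -1.10, and without replicate 3 of siEchs1 10 were lower and 1 higher. Leaving out another library gave 4 to 7 lower. The list's median differences from siCon were -0.85, -1.52 and -1.05 in replicates 1 to 3. Snhg8 stood at 44.2, 65.2 and 75.8 FPKM in siCon and at 9.78, 5.61 and 10.9 FPKM in siEchs1 (-2.69 ± 0.34, adjusted p = 0.000465). Snhg5 stood at 96.7, 66.3 and 83.8 FPKM and at 21.8, 14.5 and 20.4 FPKM (-2.07 ± 0.34, adjusted p = 0.00185), and Snhg15 at 111, 164 and 119 FPKM and at 30.7, 23.8 and 12.8 FPKM (-2.56 ± 0.45, adjusted p = 0.00271). The groups did not overlap for these genes, and replicate 3 lay within or beside the range of the other siEchs1 libraries. In DMSO, Snhg8 was at 22.6 and 17.8 FPKM, Snhg5 at 18.3 and 16.3 FPKM and Snhg15 at 5.32 and 4.33 FPKM, all below siCon.

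Promoter windows of 250 bases before to 50 after the annotated start were read from RefSeq (GRCm38.p6). The TATA motif, searched as TATAAA on both strands, was present in 14.2% of 27025 promoters. The letters were found in 7 of 19 promoters of the 2-cell list described next (36.8%) and in 6 of 16 of the snoRNA host list (37.5%). Other lists differed. The letters were in 0 of 9 promoters of the Omt2 and Tcl1 list, in which all 8 tested genes were called lower. They were in 1 of 6 of the Obox list and in 2 of 7 of a list of oocyte signals, in which 6 of 11 genes were called higher. Some promoters of the 2-cell list belong to near-identical copies. The windows of a pair of Zscan4 copies and of a pair of host genes are shown with the motif in capitals, followed by Zp3, an egg coat gene that rose in replicates 1 and 2 of siEchs1 alone and lacks it. In Zp3 the capitals mark the E-box letters CANNTG, present in 72.1% of promoters. A match is a description of these letters and not a shown binding site.
Zscan4d (chr7:11166099-11166398, minus strand): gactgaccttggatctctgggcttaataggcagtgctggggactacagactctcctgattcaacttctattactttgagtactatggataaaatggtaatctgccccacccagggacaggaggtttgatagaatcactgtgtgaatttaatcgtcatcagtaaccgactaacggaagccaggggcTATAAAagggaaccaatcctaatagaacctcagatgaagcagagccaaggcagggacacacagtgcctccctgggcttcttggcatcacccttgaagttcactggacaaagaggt
Zscan4c (chr7:11005495-11005794, plus strand): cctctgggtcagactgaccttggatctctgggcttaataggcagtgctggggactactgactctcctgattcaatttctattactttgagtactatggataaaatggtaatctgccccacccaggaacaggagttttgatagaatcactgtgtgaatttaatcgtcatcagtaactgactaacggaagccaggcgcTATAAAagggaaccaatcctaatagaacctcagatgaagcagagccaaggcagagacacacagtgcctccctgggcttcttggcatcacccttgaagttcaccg
Snhg8 (chr3:123508287-123508586, minus strand): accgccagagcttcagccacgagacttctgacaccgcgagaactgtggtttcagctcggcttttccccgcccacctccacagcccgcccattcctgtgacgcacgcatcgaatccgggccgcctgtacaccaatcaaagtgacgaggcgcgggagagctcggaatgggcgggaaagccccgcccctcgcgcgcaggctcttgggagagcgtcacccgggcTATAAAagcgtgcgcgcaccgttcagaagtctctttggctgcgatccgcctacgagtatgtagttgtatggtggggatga
Snhg5 (chr9:88522848-88523147, minus strand): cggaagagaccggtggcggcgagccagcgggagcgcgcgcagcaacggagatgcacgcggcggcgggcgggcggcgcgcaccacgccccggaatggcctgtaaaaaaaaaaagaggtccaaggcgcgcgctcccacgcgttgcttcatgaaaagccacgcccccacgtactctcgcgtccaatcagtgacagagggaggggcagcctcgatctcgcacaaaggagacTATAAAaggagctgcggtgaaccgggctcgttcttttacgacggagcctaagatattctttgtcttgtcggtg
Zp3 (chr5:135979855-135980154, plus strand): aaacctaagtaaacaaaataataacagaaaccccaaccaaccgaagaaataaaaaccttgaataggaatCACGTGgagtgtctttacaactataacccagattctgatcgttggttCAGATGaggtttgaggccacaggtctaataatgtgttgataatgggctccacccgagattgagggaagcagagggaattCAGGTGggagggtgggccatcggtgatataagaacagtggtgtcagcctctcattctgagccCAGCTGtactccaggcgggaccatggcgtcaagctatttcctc
The motif began 30 and 23 bases before the start in Snhg8 and Snhg5, and 65 and 54 bases before it in Zscan4d and Zscan4c. The Zscan4d and Zscan4c windows aligned over 287 bases with 280 identical (97.6%), and such copies share reads.

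Genes transcribed briefly in the 2-cell embryo were lower. Of 33 tested from a list of 35, 16 were called lower and 1 higher, and 10 were lower in every fit. Their median log2 fold change was -1.01, and their median differences from siCon were -2.16, -1.35 and -0.99 in replicates 1 to 3. Without replicate 3 of siEchs1 18 were lower and 2 higher, and without another library 11 to 15 were lower. Sp140, a chromatin reader of the speckled protein family, stood at 62.0, 63.0 and 62.8 FPKM in siCon and at 11.2, 10.8 and 20.6 FPKM in siEchs1 (-2.12 ± 0.34, adjusted p = 0.0015). The siCon values were tight, the groups did not overlap, and DMSO was at 6.36 and 2.96 FPKM.

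Because copies share reads, families were also summed. The 6 Zscan4 genes, linked to telomere maintenance, summed to 658, 581 and 705 FPKM in siCon and to 105, 158 and 156 FPKM in siEchs1, with DMSO at 163 and 35.5 FPKM. The 5 Tdpoz genes summed to 63.5, 71.6 and 64.3 FPKM and to 4.77, 12.7 and 28.8 FPKM, and the 5 Usp17l deubiquitinase genes to 91.7, 106 and 82.8 FPKM and to 6.47, 25.5 and 63.0 FPKM. In all of these sums the siEchs1 libraries lay below siCon, and in Tdpoz and Usp17l replicate 3 lay nearest to it. In DMSO the Tdpoz sum was 29.8 and 13.9 FPKM and the Usp17l sum 75.2 and 36 FPKM, also below siCon.

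The Obox homeobox family split. Of 8 tested, 5 were called lower and 0 higher, 1 in every fit, and leaving out a library other than siEchs1 replicate 3 gave 2 to 5 lower. Obox6 stood at 143, 213 and 150 FPKM in siCon and at 2.85, 16.7 and 17.6 FPKM in siEchs1 (-3.95 ± 0.70, adjusted p = 0.00279). The abundant maternal members did not follow it in every library. Obox2 was at 1035, 577 and 550 FPKM in siCon and at 3543, 2506 and 81.7 FPKM in siEchs1 (0.38 ± 1.03, adjusted p = 0.831), above siCon in replicates 1 and 2 and below it in replicate 3. The summed Obox level was 9280, 8941 and 9771 FPKM in siCon against 9454, 7774 and 3563 FPKM in siEchs1, so the groups overlapped. In DMSO the sum was 1668 and 1596 FPKM, below both groups. Obox6 was at 7.14 and 2.46 FPKM there, far below siCon and near siEchs1.

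**Figure D2:**
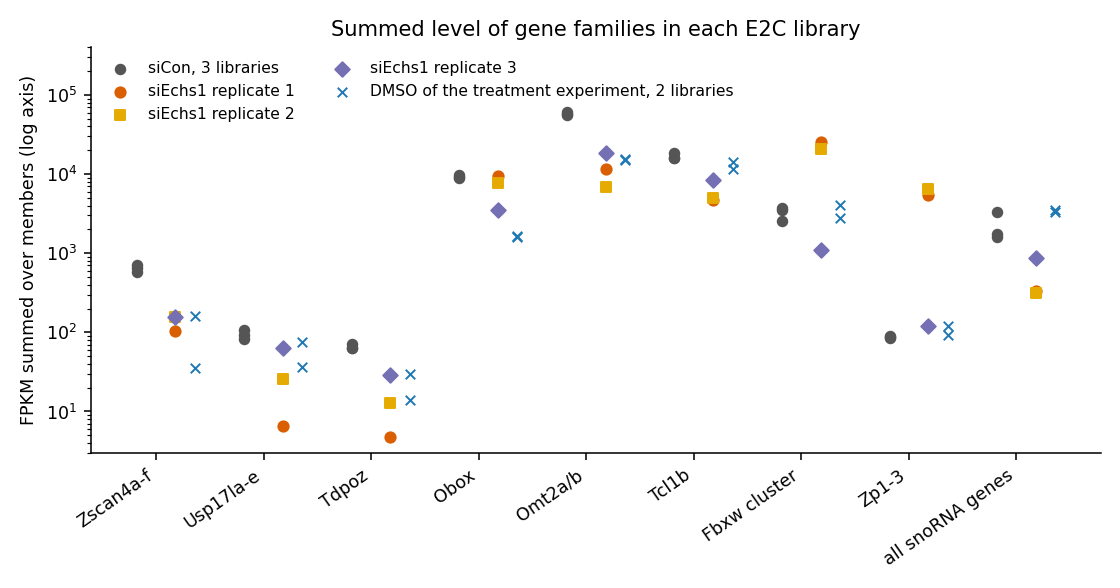
Each symbol is 1 E2C library, with the FPKM summed over the members of a family on a log axis. Zscan4, Tdpoz, Omt2, Tcl1b and snoRNA sums lie lower in all 3 siEchs1 libraries than in siCon, while the Fbxw cluster and the Zp genes are high in replicates 1 and 2 alone, and DMSO lies below siCon for Zscan4 and Omt2.

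Regulators of genome activation did not move as a group. Of 23 tested, 1 was called higher (4.35%, against 11% of all genes) and 4 lower (17.4%, against 9.31%), with a median of -0.02, or 0.16 after rescaling. Without replicate 3 of siEchs1 3 were higher and 6 lower, with a median of -0.30. Trim28, the co-repressor of KRAB zinc finger proteins, stood at 30.6, 47.0 and 32.3 FPKM in siCon and at 168, 165 and 98.3 FPKM in siEchs1 (1.93 ± 0.37, adjusted p = 0.0043). Gabpa, an ETS transcription factor, was at 32.9, 62.1 and 42.1 FPKM and at 3.94, 11.7 and 6.18 FPKM (-2.56 ± 0.60, adjusted p = 0.0112). Both were called in every fit and their groups did not overlap. Dppa3 (Stella), a maternal protector of DNA methylation in the zygote, was at 12520, 13960 and 14420 FPKM and at 6769, 4867 and 5759 FPKM (-1.24 ± 0.28, adjusted p = 0.00884), but its fold change was 0.32 after quantile normalization.

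Transcripts stored by the oocyte did not behave as one group, and 3 patterns over the siEchs1 libraries could be described. RNA-binding proteins that store maternal mRNA had a higher median in all 3 libraries. Of 19 tested from a list of 20, 9 were called higher and 1 lower, with a median of 1.30 and differences from siCon of 1.04, 1.18 and 1.00 in replicates 1 to 3. Without replicate 3 of siEchs1 8 were higher and 2 lower, and without another library 4 to 7 were higher. The 3 genes called higher in every fit were Zar1, Pabpc1l and Igf2bp2. Zar1, a maternal RNA-binding protein, stood at 37.4, 24.8 and 25.0 FPKM in siCon and at 334, 670 and 89.1 FPKM in siEchs1 (3.21 ± 0.56, adjusted p = 0.00259). Pabpc1l, the poly(A)-binding protein of oocytes and early embryos, was at 14.6, 18.4 and 15.1 FPKM and at 38.9, 76.7 and 92.3 FPKM (1.96 ± 0.34, adjusted p = 0.00256). Igf2bp2 was at 14.6, 16.4 and 13.8 FPKM and at 56.7, 59.5 and 44.8 FPKM (1.77 ± 0.27, adjusted p = 0.00111). Replicate 3 was the lowest siEchs1 library for Zar1 and the highest for Pabpc1l. DMSO was at 45.6 and 54.2 FPKM for Zar1, 32.6 and 25.0 FPKM for Pabpc1l and 24.5 and 23.8 FPKM for Igf2bp2, in each case between the groups.

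Genes of meiotic arrest and exit were also higher in part, with 9 of 24 called higher and 0 lower and a median of 1.01. Their differences from siCon were 0.47, 1.26 and 0.86 in replicates 1 to 3. Without replicate 3 of siEchs1 11 were higher, and without another library 3 to 11. Fzr1, which activates the anaphase-promoting complex, stood at 5.75, 5.55 and 4.85 FPKM in siCon and at 21.8, 33.6 and 27.3 FPKM in siEchs1 (2.14 ± 0.31, adjusted p = 0.00093). The phosphatase Cdc25a, an activator of cyclin-dependent kinases, was at 1.65, 3.01 and 2.35 FPKM and at 8.29, 10.0 and 10.0 FPKM (1.66 ± 0.28, adjusted p = 0.00234). All 3 siEchs1 libraries lay above siCon for both. Mos, with the largest rise of the list, was at 4.80, 5.89 and 5.96 FPKM in siCon. In siEchs1 it was at 676, 808 and 7.70 FPKM (4.69 ± 1.24, limma adjusted p = 0.0196). Its rise was thus large in replicates 1 and 2 alone, and it was not called in every fit. Of 38 tested genes of maternal mRNA decay, 5 were called higher and 2 lower (13.2% and 5.26%, against 11% and 9.31% of all genes), with a median of 0.14 that was -0.02 after quantile normalization. Without replicate 3 of siEchs1 7 were higher and 7 lower, with a median of -0.14. The CCR4-NOT deadenylase subunits Cnot11 and Cnot3 and the decapping genes Edc4 and Dcp1a were higher in every fit. Cnot11 was at 12.5, 9.07 and 12.9 FPKM in siCon and at 58.3, 67.5 and 57.7 FPKM in siEchs1 (2.32 ± 0.32, adjusted p = 0.000778), with replicate 3 close to the other siEchs1 libraries.

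The Omt2 and Tcl1 genes, among the most abundant oocyte transcripts, went the opposite way. All 8 tested were called lower, 1 of them in every fit, with differences from siCon of -1.83, -1.76 and -1.11 in replicates 1 to 3, and without another library 6 to 8 were lower. After quantile normalization 1 of the 8 was called lower, and the fold change of Omt2b went from -2.21 to -0.29 (limma adjusted p = 0.576). Omt2a and Omt2b summed to 55569, 57602 and 60502 FPKM in siCon and to 11763, 6857 and 18632 FPKM in siEchs1, and the DMSO sums were 15483 and 15055 FPKM. The 5 Tcl1b genes, whose relatives are partners of AKT kinases, summed to 18665, 16166 and 16192 FPKM and to 4714, 4921 and 8365 FPKM, with DMSO at 14088 and 11756 FPKM. For Omt2 the DMSO libraries lay among siEchs1, and for Tcl1b they lay between the groups.

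Zona pellucida genes and the oocyte Fbxw cluster were higher in replicates 1 and 2, and replicate 3 lay nearer to siCon or below it. The 3 zona pellucida genes Zp1, Zp2 and Zp3, which build the egg coat, summed to 91.0, 86.6 and 84.6 FPKM in siCon, against 5402, 6429 and 120 FPKM in siEchs1 replicates 1 to 3, and to 91.8 and 121 FPKM in DMSO. The 14 Fbxw genes, F-box proteins expressed in oocytes, summed to 3540, 2564 and 3758 FPKM in siCon and to 25552, 20769 and 1111 FPKM in siEchs1, with DMSO at 2802 and 4093 FPKM. Of those 14, 2 were called higher and 0 in every fit, while 14 were called higher without replicate 3 of siEchs1. For both families replicates 1 and 2 stood far above every control library and replicate 3 did not.

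Some genes of these groups rose in replicate 3 as well, by less. Astl, the protease that cleaves ZP2 after fertilisation, stood at 1.72, 3.06 and 1.90 FPKM in siCon and at 71.1, 186 and 10.8 FPKM in siEchs1 (4.09 ± 0.75, adjusted p = 0.00328). Nobox, an oocyte homeobox factor, was at 27.6, 26.1 and 25.4 FPKM and at 226, 473 and 84.6 FPKM (2.94 ± 0.53, adjusted p = 0.00306), with DMSO at 68.1 and 79.8 FPKM. Plat, tissue plasminogen activator, was at 7.74, 7.47 and 9.39 FPKM and at 176, 334 and 31.8 FPKM (3.77 ± 0.64, adjusted p = 0.0022). The growth factor Fgf8 was at 11, 9.13 and 9.54 FPKM and at 114, 115 and 42.6 FPKM (2.94 ± 0.39, adjusted p = 0.000591), with DMSO at 5.09 and 6.78 FPKM. In each, replicate 3 was the lowest siEchs1 library and still above every siCon library. DMSO was at 15.6 and 15.7 FPKM for Astl, above replicate 3 of siEchs1, and at 13.1 and 15.6 FPKM for Plat, below it. The maternal effect gene Nlrp9c fell instead, from 1599, 1615 and 1427 FPKM to 682, 547 and 383 FPKM (-1.56 ± 0.28, adjusted p = 0.00301). Of the subcortical maternal complex, 5 of 13 genes were called higher and 0 in every fit, with differences of 0.31, 1.71 and 0.45.

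**Figure D3:**
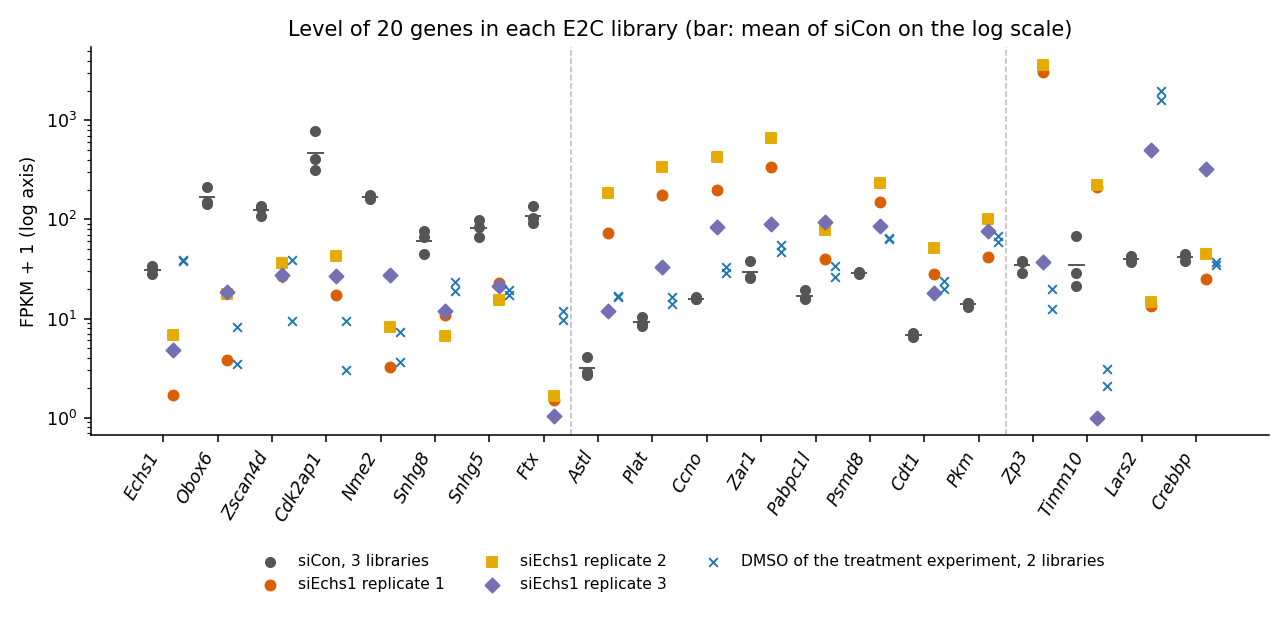
Points are FPKM + 1 in single E2C libraries on a log axis for 20 genes, with the 2 DMSO libraries of the separate experiment as crosses. Genes left of the first dashed line lie lower in all 3 siEchs1 libraries, those in the middle block lie higher in all 3, and in the right block replicate 3 (violet) parts from replicates 1 and 2.

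By list medians, transcripts of the mitochondrial genome were lower in all 3 siEchs1 libraries. Nuclear genes of the same complexes were higher in replicates 1 and 2 and lower in replicate 3. Of 13 mitochondrial mRNAs, 10 were called lower and 0 higher, 2 of them in all fits that held them, with differences from siCon of -2.66, -3.67 and -0.71 in replicates 1 to 3. Without another library than siEchs1 replicate 3, 5 or 6 were lower. Quantile normalization left 2 called lower, with a median of -1.44 in place of -2.32, and the E2C libraries alone left 3. The rescaling removes these genes and gives no value. Their sum was 122145, 174784 and 162924 FPKM in siCon against 21957, 12003 and 56312 FPKM in siEchs1, with DMSO at 85561 and 75922 FPKM. DMSO lay between the groups, and replicate 3 was the siEchs1 library nearest to it. The ATP synthase subunit mt-Atp8 was called lower in the test and in the 11 other fits that held it, at 24790, 41600 and 36630 FPKM in siCon and at 3636, 2379 and 5709 FPKM in siEchs1 (-3.19 ± 0.41, adjusted p = 0.000493). Of the 75 nuclear genes of oxidative phosphorylation, 9 were called higher and 1 lower, and without replicate 3 of siEchs1 54 were higher. Their median differences were 2.38, 1.51 and -0.92 in replicates 1 to 3, so that replicate 3 was below siCon. Cox8a, a subunit of cytochrome c oxidase, was the 1 nuclear gene called in every fit, and it was lower. It stood at 3114, 3146 and 3339 FPKM in siCon against 884, 569 and 1468 FPKM in siEchs1 (-1.82 ± 0.33, adjusted p = 0.00318). In DMSO it was at 927 and 1083 FPKM, within the siEchs1 range.

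Mitochondrial ribosomal proteins followed the nuclear respiratory genes. Of 78 tested, 15 were called higher and 2 lower, 53 and 2 without replicate 3 of siEchs1, with differences of 1.71, 1.25 and -0.46. Mrpl37, a protein of the large subunit, was higher in every fit, at 14.7, 9.65 and 7.49 FPKM in siCon and at 37.1, 57.2 and 34.0 FPKM in siEchs1 (1.93 ± 0.34, adjusted p = 0.0028). The mitochondrial elongation factor Tsfm was at 7.29, 3.24 and 9.54 FPKM and at 39.8, 37.7 and 32.6 FPKM (2.39 ± 0.41, adjusted p = 0.00234). In these genes replicate 3 lay with replicates 1 and 2, which their choice as called in every fit favours. DMSO was at 33.1 and 33.7 FPKM for Tsfm, within the siEchs1 range. For Mrpl37 it was at 10.3 and 13.7 FPKM, within the siCon range. In central metabolism, pyruvate kinase Pkm and fumarase Fh1 were higher and oxoglutarate dehydrogenase Ogdh was lower in every fit. Fh1 was at 18.7, 6.27 and 14.6 FPKM in siCon and at 108, 106 and 37.9 FPKM in siEchs1 (2.55 ± 0.45, adjusted p = 0.00268). Ogdh was at 47.8, 28.7 and 33.8 FPKM and at 6.74, 13.9 and 9 FPKM (-1.81 ± 0.37, adjusted p = 0.00611). Dbt, a subunit of the dehydrogenase of branched-chain keto acids upstream of Echs1, was at 11.5, 11.4 and 11.1 FPKM and at 3.88, 3.76 and 2.80 FPKM (-1.47 ± 0.35, adjusted p = 0.013). For Fh1, Ogdh and Dbt the groups did not overlap.

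Cytosolic ribosomal protein genes were higher in replicates 1 and 2 and lower in replicate 3. Of 80 tested, 4 were called higher and 4 lower, and without replicate 3 of siEchs1 44 were higher and 4 lower, with differences of 1.34, 0.76 and -1.15. Those called in every fit were both lower. Rpl29 was at 34.1, 63.7 and 39.2 FPKM in siCon and at 9.30, 9.19 and 2.93 FPKM in siEchs1 (-2.60 ± 0.40, adjusted p = 0.0014), and Rps27l, a relative of Rps27 induced by p53, at 4613, 4402 and 5615 FPKM and at 1329, 564 and 1860 FPKM (-2.12 ± 0.39, adjusted p = 0.00335). DMSO was at 6.59 and 3.86 FPKM for Rpl29 and at 1252 and 1241 FPKM for Rps27l, within the siEchs1 range for both. Of 78 ribosome biogenesis genes, 8 were called higher and 5 lower (10.3% and 6.41%, against 11% and 9.31% of all genes). Without replicate 3 of siEchs1 24 were higher and 7 lower, beside 23% and 13.8% of all genes. In every fit 2 were called higher and 3 lower, beside 2.64% and 3.79% of all genes. Noc4l, needed for the small subunit, was at 7.27, 7.36 and 5.37 FPKM and at 91.2, 169 and 26.1 FPKM (3.30 ± 0.51, adjusted p = 0.0014), and the nucleolar protein Nop16 at 59.95, 56.3 and 51.7 FPKM and at 5.58, 10.8 and 18.3 FPKM (-2.31 ± 0.46, adjusted p = 0.00505). DMSO was at 18.9 and 24 FPKM for Noc4l, between the groups, and at 1.49 and 1.06 FPKM for Nop16, below both.

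Protein breakdown and folding genes were higher in part. Of 39 proteasome genes 8 were called higher and 1 lower, 3 of them higher in every fit, and without replicate 3 of siEchs1 29 were higher. The differences were 1.93, 1.60 and -0.68 in replicates 1 to 3. The assembly chaperone Psmd9 was at 27.6, 23.4 and 21.6 FPKM in siCon and at 129, 173 and 99.1 FPKM in siEchs1 (2.39 ± 0.31, adjusted p = 0.000514). It was above siCon in all 3 libraries, unlike the median of its list, but the call in every fit that chose it favours this. DMSO was at 63.2 and 60.4 FPKM. The heat shock co-chaperone Dnajb1 was at 18.3, 21.97 and 16.97 FPKM and at 87.5, 107 and 76.2 FPKM (2.18 ± 0.28, adjusted p = 0.000461). Of 58 autophagy and lysosome genes 13 were called higher and 6 lower, 5 and 4 in every fit. Leaving out replicate 3 of siEchs1 gave 19 higher and 9 lower. The median differences from siCon were 0.30, 0.57 and -0.05 in replicates 1 to 3. Lamp1, a membrane protein of lysosomes, was at 9.45, 10.4 and 9.12 FPKM and at 83.4, 156 and 52.0 FPKM (3.06 ± 0.37, adjusted p = 0.000299). Npc1, which exports cholesterol from lysosomes, was at 3.40, 2.94 and 3.06 FPKM and at 38.3, 47.2 and 15.5 FPKM (2.93 ± 0.40, adjusted p = 0.000654). The lysosomal protease Ctsc went down, from 11.97, 14.7 and 17.8 FPKM to 0.62, 1.28 and 1.00 FPKM (-3.01 ± 0.39, adjusted p = 0.000524). The groups did not overlap for any of these genes. In DMSO, Ctsc was at 0.33 and 1.12 FPKM, near siEchs1, and Dnajb1 at 55.0 and 49.1 FPKM, between the groups. Lamp1 at 15.7 and 16.5 FPKM and Npc1 at 2.99 and 3.02 FPKM lay nearer to siCon.

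Genes of DNA replication were higher in part. Of 50 tested, 10 were called higher (20%, against 11% of all genes) and 1 lower, and 6 were higher in every fit, with differences of 0.80, 1.00 and 0.35. After rescaling 17 were higher, without replicate 3 of siEchs1 24 were higher (23% of all genes were in that fit), and without another library 7 or 8. Pold2, a subunit of polymerase delta, was at 5.62, 7.99 and 2.86 FPKM in siCon and at 24.2, 34.7 and 24.7 FPKM in siEchs1 (2.22 ± 0.36, adjusted p = 0.00171), and the clamp loader subunit Rfc2 at 4.89, 4.80 and 3.09 FPKM and at 38.7, 60.7 and 12.4 FPKM (2.63 ± 0.45, adjusted p = 0.00254). The condensin subunit Smc4, of the mitosis list, was at 33.4, 29.5 and 34.8 FPKM and at 197, 215 and 84.6 FPKM (2.20 ± 0.36, adjusted p = 0.00181). Replicate 3 was above siCon for all of these, which were chosen as called in every fit. DMSO was at 5.43 and 5.69 FPKM for Pold2, within the siCon range, and at 146 and 223 FPKM for Smc4, near siEchs1. For Rfc2 it was at 22.4 and 15.5 FPKM, above replicate 3 of siEchs1 and below replicates 1 and 2.

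The enzymes that make, write, remove or read crotonyl groups showed few changes. Of 10 enzymes of crotonyl-CoA, Gcdh was called higher and Echs1 lower. Of 10 writers Kat2a and Kat7 were higher, of 9 removers Hdac3 and Sirt2 were higher, and 0 of 10 readers were called by limma (3 had an unadjusted p under 0.05). The shares over all genes were 11% and 9.31%. When replicate 3 of siEchs1 was left out, 4 writers were higher and 2 lower, and 2 readers were higher and 2 lower. Hdac3, among the deacetylases that act on crotonyl lysine, was higher in every fit at a low level, 0.40, 1.08 and 1.28 FPKM in siCon against 5.83, 6.99 and 4.81 FPKM in siEchs1 (1.86 ± 0.34, adjusted p = 0.00312). Crebbp, a writer, stood at 42.1, 44.3 and 37.1 FPKM in siCon and at 24.3, 43.5 and 325 FPKM in siEchs1 (0.77 ± 0.72, adjusted p = 0.482), so its mean rested on replicate 3. Its relative Ep300 was at 10.0, 12.7 and 8.40 FPKM and at 3.88, 4.57 and 9.70 FPKM (-0.76 ± 0.36, adjusted p = 0.152), and the groups overlapped. Cdyl, a hydratase of crotonyl-CoA that lowers histone crotonylation, was at 16.5, 12.01 and 16.2 FPKM and at 14.9, 16.3 and 25.2 FPKM (0.29 ± 0.30, adjusted p = 0.522).

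Other chromatin genes moved singly. Of 44 chromatin remodelers 6 were called higher and 2 lower (13.6% and 4.55%, against 11% and 9.31% of all genes), and 8 and 8 without replicate 3 of siEchs1, with differences of -0.23, -0.01 and 0.82, so replicate 3 was the highest library. Ruvbl2, an ATPase shared by INO80 and TIP60 complexes, was at 14.3, 9.88 and 10.6 FPKM in siCon and at 61.4, 79.1 and 39.1 FPKM in siEchs1 (2.23 ± 0.32, adjusted p = 0.000878). Smarca2, the BRM ATPase of SWI/SNF complexes, was at 720, 705 and 720 FPKM and at 252, 228 and 278 FPKM (-1.50 ± 0.33, adjusted p = 0.00862). Replicate 3 lay with replicates 1 and 2 in both, which were chosen as called in every fit. Kdm1b, the histone H3K4 demethylase that acts in growing oocytes, was at 27.7, 23.7 and 21.5 FPKM and at 126, 80.1 and 74.3 FPKM (1.87 ± 0.36, adjusted p = 0.00409). Kdm5a, another H3K4 demethylase, was at 60.7, 59.3 and 96.2 FPKM and at 17.8, 24.9 and 18.6 FPKM (-1.75 ± 0.37, adjusted p = 0.00671), with DMSO far above both at 454 and 572 FPKM. The histone variant macroH2A1, H2afy, was at 1.22, 2.47 and 1.98 FPKM and at 11.5, 11.2 and 7.67 FPKM (1.95 ± 0.32, adjusted p = 0.00198).

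Of 72 genes of RNA polymerase II, TFIID and Mediator 6 were called higher and 4 lower (8.33% and 5.56%, below the shares of all genes), or 26 and 5 without replicate 3 of siEchs1 and 12 and 3 after rescaling. Of 66 spliceosome genes 12 were higher and 3 lower (18.2% and 4.55%, against 11% and 9.31% of all genes). Without that library 24 were higher and 9 lower, beside 23% and 13.8% of all genes. After rescaling 24 were higher and 2 lower, beside 2790 and 1221 of the 17652 genes tested. Polr2f, a small subunit shared by RNA polymerases, was at 726, 852 and 789 FPKM in siCon and at 240, 147 and 264 FPKM in siEchs1 (-1.90 ± 0.30, adjusted p = 0.00144). Snrpg, a core protein of spliceosomal particles, was at 3351, 3520 and 3951 FPKM and at 734, 405 and 1377 FPKM (-2.28 ± 0.41, adjusted p = 0.00313). Sf3b4, of the U2 particle, was at 4.52, 1.42 and 1.76 FPKM and at 20.5, 38.0 and 14.6 FPKM (2.82 ± 0.45, adjusted p = 0.00157), and Eftud2, the GTPase of the U5 particle, at 2.10, 2.50 and 2.86 FPKM and at 27.2, 27.3 and 9.53 FPKM (2.55 ± 0.38, adjusted p = 0.00107). The groups did not overlap. DMSO was at 964 and 1087 FPKM for Snrpg, within the siEchs1 range, and at 70.3 and 78.4 FPKM for Polr2f, below both groups.

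Lists of stress genes differed. Of 26 heat shock and chaperone genes 9 were called higher (34.6%, against 11% of all genes) and 0 lower, with differences of 0.70, 0.76 and 0.59. But 1 was higher with the E2C libraries alone and 2 to 7 without another library than siEchs1 replicate 3. Without siEchs1 replicate 3, 12 were higher and 2 lower, beside 23% and 13.8% of all genes. Of 27 tested targets of ATF4, 2 were called higher and 1 lower, and of 25 tested p53 targets 1 was higher and 4 lower. Leaving out siEchs1 replicate 3 gave 3 higher and 2 lower for ATF4, and 2 higher and 6 lower for p53. Metallothionein Mt2, which binds zinc and copper, was lower, at 266, 518 and 492 FPKM in siCon and at 24.1, 39.95 and 107 FPKM in siEchs1 (-3.09 ± 0.55, adjusted p = 0.00306). The stress-induced chromatin protein Nupr1 was at 39.0, 43.0 and 24.2 FPKM and at 1.13, 2.32 and 8.93 FPKM (-3.10 ± 0.58, adjusted p = 0.00376). Replicate 3 was the siEchs1 library nearest to siCon for both. In DMSO, Mt2 was at 57.2 and 34.1 FPKM and Nupr1 at 2.73 and 1.12 FPKM, far below siCon and near siEchs1. Among adhesion genes, the catenin Ctnnb1 was at 25.7, 25.4 and 17.4 FPKM and at 126, 126 and 90.3 FPKM (2.28 ± 0.30, adjusted p = 0.000579), and E-cadherin, Cdh1, at 3.21, 1.97 and 3.18 FPKM and at 9.17, 21.3 and 22.3 FPKM (2.22 ± 0.38, adjusted p = 0.00242). DMSO was at 34.4 and 36.1 FPKM for Ctnnb1 and at 3.73 and 5.07 FPKM for Cdh1, below every siEchs1 library.

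The largest changes of named genes that were called in every fit belonged to no single list. Ormdl2, which restrains sphingolipid synthesis, stood at 122, 131 and 152 FPKM in siCon and at 6.43, 7.85 and 6.80 FPKM in siEchs1 (-4.08 ± 0.36, adjusted p = 2.396e-05). Cdk2ap1, which restrains CDK2, was at 314, 782 and 409 FPKM and at 16.1, 41.5 and 26.2 FPKM (-4.11 ± 0.60, adjusted p = 0.000975). Nme2, a nucleoside diphosphate kinase, was at 160, 176 and 172 FPKM and at 2.24, 7.15 and 26.7 FPKM (-4.24 ± 0.80, adjusted p = 0.00389). In DMSO these genes were far below siCon, at 3.56 and 17.5 FPKM for Ormdl2, 8.41 and 2.05 FPKM for Cdk2ap1 and 6.31 and 2.68 FPKM for Nme2. The calcium channel Trpm2 differed in this, at 32.4, 40.5 and 30.6 FPKM in siCon, 1.87, 1.27 and 0.43 FPKM in siEchs1 (-4.07 ± 0.39, adjusted p = 5.018e-05), and 32.4 and 31.6 FPKM in DMSO. Here all siEchs1 libraries lay below both control groups. Among the rises, Camsap3, which binds microtubule minus ends, was at 2.37, 2.10 and 2.19 FPKM and at 38.9, 43.2 and 17.3 FPKM (3.31 ± 0.34, adjusted p = 9.48e-05), with DMSO at 4.12 and 6.23 FPKM. Plxnb2, a semaphorin receptor, was at 2.13, 0.90 and 1.11 FPKM and at 25.3, 42.8 and 10.5 FPKM (3.35 ± 0.49, adjusted p = 0.00103), with DMSO at 0.61 and 0.46 FPKM. For Camsap3 and Plxnb2 too, both control groups lay below every siEchs1 library. The cyclin-like gene Ccno was at 14.7, 14.8 and 15.3 FPKM and at 198, 423 and 83.8 FPKM (3.60 ± 0.47, adjusted p = 0.000493).

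**Figure D4:**
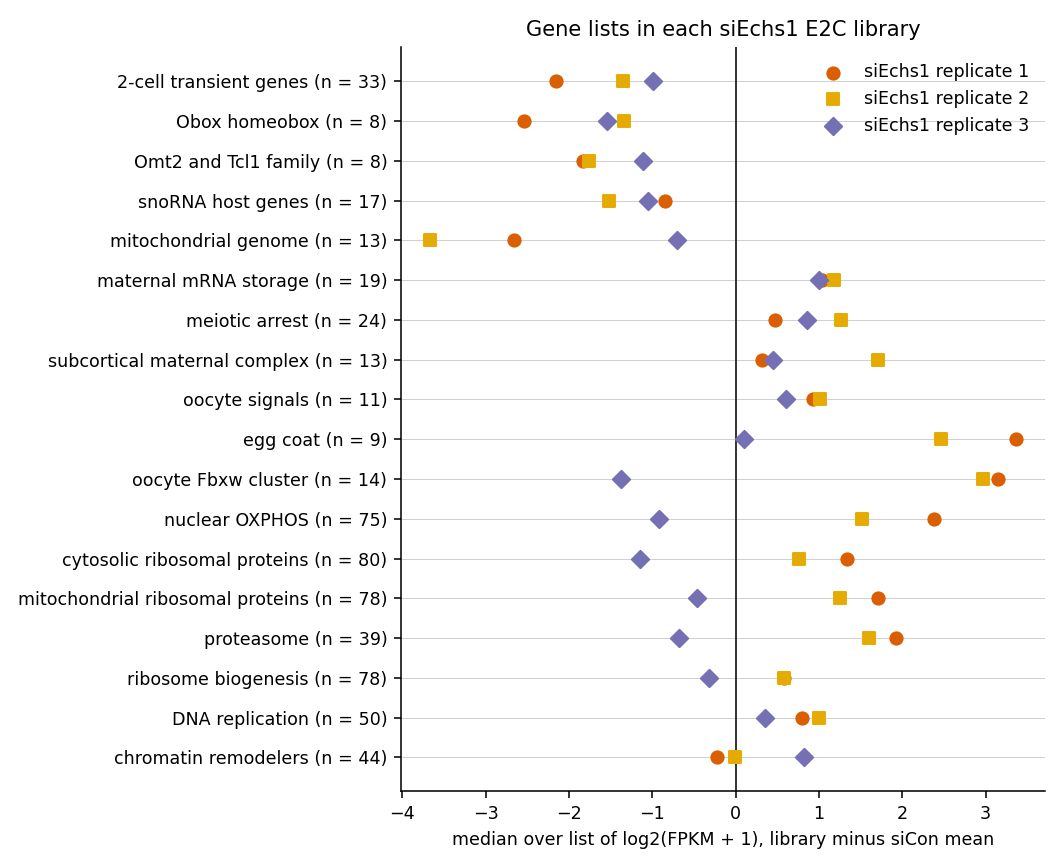
Symbols are medians over the tested genes of a list of the difference in log2(FPKM + 1) between 1 siEchs1 library and the mean of the 3 siCon libraries. The upper 5 lists lie below 0 and maternal mRNA storage above 0 in all 3 libraries, whereas nuclear OXPHOS, ribosomal proteins and proteasome lie above 0 in replicates 1 and 2 and below 0 in replicate 3 (violet).

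Replicate 3 of siEchs1 differed from replicates 1 and 2 in both directions. Of 9010 genes with a mean of at least 5 FPKM in siEchs1, replicate 3 lay at least 4-fold below both others for 1226 and at least 4-fold above both for 260. The same counts were 85 and 48 for replicate 1 and 29 and 27 for replicate 2. Among those below was Timm10, a chaperone of the mitochondrial intermembrane space, listed at 210, 222 and 0 FPKM in replicates 1 to 3 against 20.5, 67.0 and 27.5 FPKM in siCon. The initiation factor subunit Eif3m was at 377, 262 and 1.47 FPKM against 9.59, 27.6 and 19.7 FPKM. Among those above was Lars2, the mitochondrial leucyl-tRNA synthetase, at 12.4, 13.8 and 502 FPKM against 41.4, 36.1 and 39.1 FPKM. For Lars2 the DMSO libraries were higher still, at 1600 and 1990 FPKM. For these genes replicates 1 and 2 lay on one side of siCon and replicate 3 on the other.

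The position of replicate 3 moved with gene length. Protein-coding genes were cut into 5 equal groups by exon length, from 102 to 2156 nt in the shortest to at least 7340 nt in the longest. The median difference of replicate 3 from the mean of replicates 1 and 2 was -0.51, -0.24, -0.08, 0.10 and 0.38 from the shortest group to the longest. The same measure in siCon, replicate 3 against the mean of 1 and 2, was 0.05, -0.02, -0.02, -0.05 and -0.05. Some lists in which replicate 3 was low had short genes, with median exon lengths of 1756 nt in nuclear oxidative phosphorylation, 1754 nt in cytosolic ribosomal proteins and 1852 nt in the Fbxw cluster. The chromatin remodelers, in which it was high, had a median of 7804 nt. Other lists did not follow this order. The 2-cell list had a median of 1987 nt and a difference of 1.07, the mitochondrial genome 784 nt and 2.15, the tricarboxylic acid cycle 3836 nt and -1.51, and the aminoacyl-tRNA synthetases 5142 nt and -0.98. Ribosomal RNA took 2.48% of the FPKM total in replicate 3, against 0.197% and 0.161% in replicates 1 and 2 and 0.271% to 0.382% in siCon. The part of length and of ribosomal RNA in the difference was not tested.

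**Figure D5:**
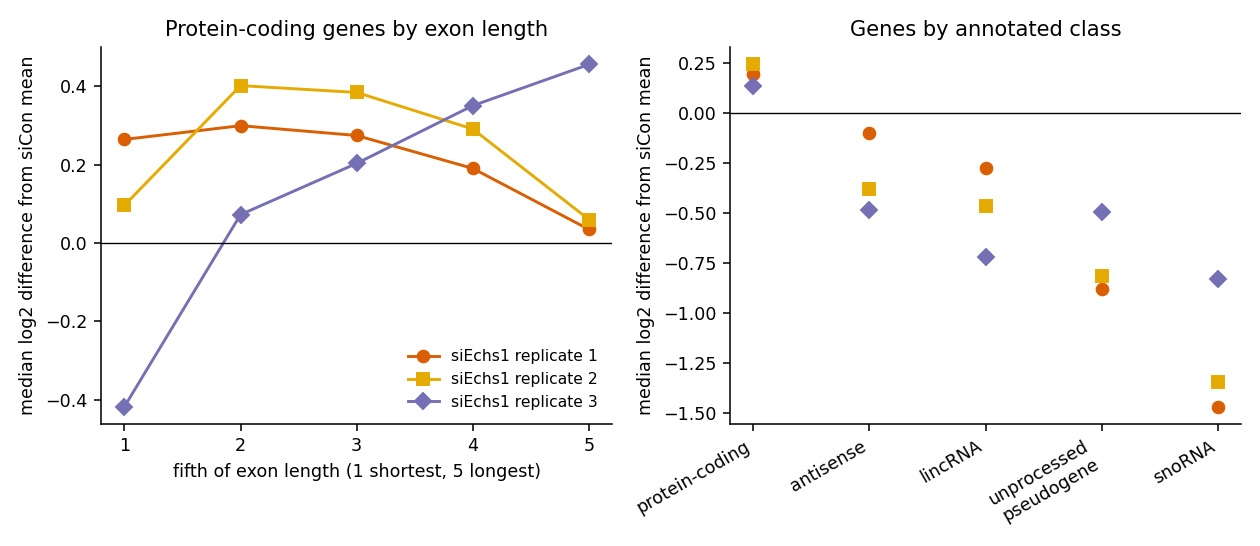
Medians of the difference in log2(FPKM + 1) from the siCon mean are plotted for each siEchs1 library, left by exon length group of protein-coding genes and right by annotated class. Replicate 3 climbs from -0.42 in the shortest group to 0.46 in the longest, and lincRNA, unprocessed pseudogene and snoRNA medians lie below 0 in all 3 libraries.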

How the data were processed

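The 6 libraries of pooled E2C mouse embryos (siCon and siEchs1) were compared, and the 6 L2C libraries of the siRNA experiment entered the fit. The authors deposited FPKM values, per the file headers, in 1 file per library with 55335 genes. The tools named per the submitters' processing notes are cutadapt 1.16, a read trimmer, and STAR, an aligner, with the mm10 build. No source used here names the program or annotation behind the FPKM. Genes with repeated symbols (104 symbols) or symbols turned into dates (27) were left out. From the deposited FPKM, log2(FPKM + 1) values were computed and tested with limma-trend and robust variance (limma 3.58.1, R 4.3.3) over all 12 siRNA libraries in 1 fit, two-sided, for the 17652 genes that reached 1 FPKM in 3 or more libraries, with Benjamini-Hochberg adjustment. The script was tested on simulated data. Strand was not kept, so overlapping and antisense genes were not separated. Positions and classes are from GENCODE M21 (mm10). DMSO libraries were read for levels alone. The libraries, gene lists and rules were chosen with earlier results of these data known.

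Named genes were Echs1, a panel set whatever its values, and genes taken by rule. Each list gave up to 3 members with the smallest adjusted p. These had to be called in every fit with a mean of at least 5 FPKM. The 10 largest changes per direction were added among genes called in every fit with a mean of at least 10 FPKM and no overlap. Predicted genes were left out there. Also named were the 8 genes per direction in which siEchs1 replicate 3 lay farthest out, and the most abundant siCon genes. Not all named genes have their own values printed above. Of the panel these were Nlrp5 and Zp3 (called higher by the test) and Zscan4d and Zfp352 (called lower). The others were Npm2, Btg4, Cnot6l, Duxf3, Acads, Acss2, Hdac1, Sirt1, Tead4 and Pou5f1 (not called). Predicted genes and families outside these rules were chosen after their values were seen.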

Additional observations from a re-analysis of the deposited data

How the results depend on the processing

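Counts of called genes moved with the processing. Leaving out 1 library in turn gave 1889 to 6496 calls, 882 to 4052 higher and 1007 to 2444 lower. With the E2C libraries alone there were 1353 calls, 532 higher and 821 lower. With array weights, which gave siEchs1 replicate 3 a weight of 0.112, there were 8130, 4974 higher and 3156 lower. Without the filter on low values 1138 were higher. Of the 1135 genes called in every fit, 75 were called at an adjusted p under 0.01 in each. The replicate block gave 3169 calls, 1698 higher and 1471 lower. Deviations of same-numbered libraries correlated at -0.058, 0.057 and -0.014, and those of differently numbered libraries at -0.051 to 0.063. A pairing by number was not seen, but correlations over so few libraries cannot exclude it. Of the named genes called by the test, 1 changed sign, Dppa3, to 0.32 after quantile normalization (limma adjusted p = 0.546). Many named genes had been chosen for a call in the same direction in every fit, so their signs could not change. A further 10 named genes that were not called changed sign under at least 1 setting, and without siEchs1 replicate 3 Lars2 went from 0.22 to -1.50 (limma adjusted p = 0.00218) and Crebbp from 0.77 to -0.32. Without counts, the precision of low values is unknown, and siEchs1 replicate 3 and the distance of siCon from DMSO limit what the comparison shows.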
